A study of Mus musculus with 2 samples.

Results

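The genes of the cytosolic ribosomal proteins and their pseudogenes of the mouse were followed through the open chromatin regions called in regulatory T (Treg) cells by ATAC-seq. Members were the peaks whose assigned gene symbol begins with Rpl or Rps and a digit, or with Rplp or Rpsa, leaving out the Rps6k kinases. They made up 207 of 34440 peaks in the wild-type (WT) library and 115 of 19680 peaks in the transketolase-deficient (cKO) library, under 138 symbols. Of these symbols, 69 end in -ps and a number, the form given to pseudogenes, and 69 do not. The first kind held 117 WT and 45 cKO peaks, and the second, called genes here, held 90 WT and 70 cKO peaks.

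ATAC-seq marks open chromatin by the insertion of adapters with the transposase Tn5. Each library came from 50000 CD4+CD25+YFP+ cells sorted from the lymph node and spleen of C57BL/6 females at 7 weeks of age. Both groups carried Foxp3cre/+, a Cre driven from the Foxp3 gene on 1 of 2 X chromosomes, and the labels call the animals chimeric. The cKO group was in addition TKTfl/fl, so that transketolase, an enzyme of the non-oxidative pentose phosphate pathway, was floxed for deletion in cells that express Foxp3. The number of animals behind a library is not given in the sources used here, and with 1 library per genotype no difference between the libraries has a replicate check.

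Ribosomal proteins of the large subunit (Rpl, Rplp) and of the small subunit (Rps, Rpsa) are assembled with ribosomal RNA in near equal amounts, and nearly every one is made from a single intron-containing gene that is active in all dividing cells. Their mRNAs typically begin with a pyrimidine tract through which the mTOR pathway and Larp1 control translation, a step tied to growth and activation of T cells. The same abundant mRNAs have been copied back into the genome many times. These processed pseudogenes lack introns and, as a rule, the promoter of the parent gene.

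The starts of 8 genes are shown first, because the peaks over such starts carry most of what was found. Each stretch runs from 80 bases before the annotated RefSeq start (GRCm38.p6, the assembly behind mm10) through the first 20 bases from the start on, 5′ to 3′ on the strand of the gene. Capitals mark a tract of C followed by at least 4 pyrimidines that begins within 10 bases of the start, and the ETS factor motif CCGGAAG on either strand. Rps6, Rplp2, Rpl38, Rpl15 and Rps23 show the tract and Rpl38, Rpl15 and Rps25 the motif, while Rps19 and Rpl5 show neither. Rps25, Rps23, Rps19 and Rpl5 are shown because their peaks rank among the highest of the family in WT. The 8 genes are examples and do not give the share in the family, where 31 of 57 starts had the tract. Some RefSeq starts differ from the nearest start of the gene in the deposited lists, by 575 bp at Rps25, 281 bp at Rplp2 and 164 bp at Rps23. For Rpl15 the deposited lists give no start to compare with. The stretches lie at chr4:86857348-86857447 (Rps6, minus strand), chr7:141447571-141447670 (Rplp2, plus), chr11:114668500-114668599 (Rpl38, plus), chr14:18270967-18271066 (Rpl15, minus), chr9:44407634-44407733 (Rps25, plus), chr13:90923042-90923141 (Rps23, plus), chr7:24884596-24884695 (Rps19, plus) and chr5:107900448-107900547 (Rpl5, plus).
Rps6: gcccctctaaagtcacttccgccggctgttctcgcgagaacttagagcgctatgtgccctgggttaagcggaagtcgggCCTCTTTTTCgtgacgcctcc
Rplp2: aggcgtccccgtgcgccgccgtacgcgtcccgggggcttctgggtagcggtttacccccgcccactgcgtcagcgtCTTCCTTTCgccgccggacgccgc
Rpl38: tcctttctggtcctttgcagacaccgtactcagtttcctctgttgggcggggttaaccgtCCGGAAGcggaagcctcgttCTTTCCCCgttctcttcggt
Rpl15: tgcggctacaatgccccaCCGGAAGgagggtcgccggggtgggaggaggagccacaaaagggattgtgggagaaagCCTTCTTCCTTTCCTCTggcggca
Rps25: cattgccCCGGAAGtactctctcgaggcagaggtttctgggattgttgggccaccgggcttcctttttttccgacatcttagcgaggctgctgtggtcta
Rps23: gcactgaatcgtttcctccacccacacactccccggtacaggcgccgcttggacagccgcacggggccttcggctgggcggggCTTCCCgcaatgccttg
Rps19: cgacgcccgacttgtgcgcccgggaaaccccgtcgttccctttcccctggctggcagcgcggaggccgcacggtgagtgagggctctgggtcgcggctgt
Rpl5: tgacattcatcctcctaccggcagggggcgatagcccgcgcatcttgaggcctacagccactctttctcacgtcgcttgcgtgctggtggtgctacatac

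The table of RefSeq starts held 57 of the 77 ribosomal protein genes, and 1 start under a WT peak was taken for each. For the 48 genes with a deposited start it was the nearest to one. For the rest it was the start with the lowest coordinate, whatever the strand. The pyrimidine tract was present at 31 of the 57 starts (54.4%, 95% Wilson interval 41.6 to 66.6), against 31.8% of the 9954 protein-coding starts under a WT peak and 31.1% of all 21263 protein-coding starts. For 69 mitochondrial ribosomal protein genes the first listed start under a WT peak was taken, whatever its distance from a deposited start. The tract was present at 29 of these (42.0%, 31.1 to 53.8), an interval that overlaps that of the cytosolic family. Where present in the cytosolic family, the tract was 5 to 20 letters long, with a median of 8. Annotated starts were not always exact, since 17 of 48 lay within 10 bp of a start given for the gene in the deposited lists, so tracts can be missed. The ETS letters CCGGAAG were found in 24 of 57 windows of 300 bases (42.1%, 30.2 to 55.0), against 21.2% of protein-coding starts under a WT peak and 36.2% of the mitochondrial set. The YY1 letters AAGATGGC were found in 4 (7.02%), against 5.04% of starts under a WT peak and 17.4% of the mitochondrial set, and the TATA letters TATAAA in 5 (8.77%, against 6.21%). The NRF1 motif was found in 1, at Rpl37a (1.75%, against 2.44%). The tract was searched on the strand of the gene and each other motif on both strands over the whole window. The compared sets of starts under a WT peak hold several starts for some genes, and a match describes letters only.

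Every one of the 77 ribosomal protein genes, 46 of the large and 31 of the small subunit, had a called peak over its start, or for 4 genes over an end, in both libraries. Each of the 77 WT peaks was overlapped by a cKO peak. By the table of RefSeq starts alone the count was 57 of 57 in each library, where 49.2% of 17492 protein-coding genes had a start under a WT peak and 42.9% under a cKO peak. Of protein-coding genes with a start under a WT peak, 86.4% had one under a cKO peak as well. The 4 genes (Rpl30, Rps20, Rps27a and Rps29) had no strand in the tables used, so a peak over either end was accepted.

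Peaks over these starts ranked high in their own lists. Their median score percentile, where 100 is the highest score in the library, was 92.3 in WT (range 67.3 to 99.8) and 80.3 in cKO (31.9 to 99.6). The peaks carrying the gene's own symbol had medians of 91.5 in 60 WT peaks and 80.6 in 62 cKO peaks, while all peaks over the start of their own gene had 80 and 70.4. By own symbol too, mitochondrial ribosomal protein genes stood at 83.6 and 67.1 and ribosome biogenesis genes at 88.1 and 78.4. Translation factor genes stood higher than the family, at 92.9 and 86.7. Counted by gene start under any symbol, ribosome biogenesis genes stood at 91.4 and 80.6, near the family's 92.3 and 80.3. Translation factor genes then stood at 93.6 and 87.3. Large and small subunit genes were close in WT, at 91.1 over 36 peaks and 93.1 over 21. Percentiles are set within a library and show nothing of a change between libraries of different list length.

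Among the highest ranked genes in WT under their own symbols were Rps19, Rps25, Rps23 and Rpl5. Rps19, a small subunit protein mutated in Diamond-Blackfan anaemia, had a 1055 bp peak at chr7:24883767-24884821 at percentile 99.8 in WT and a 980 bp peak at 99.1 in cKO. Rps25, used by some viral and cellular mRNAs to recruit the small subunit, stood at 99.3 in WT and 95 in cKO. Rps23, a protein of the decoding centre, stood at 99.0 and 98.5. Rpl5, which binds Mdm2 together with Rpl11 and the 5S ribosomal RNA, stood at 99.0 and 97.1. Its partner Rpl11 stood at percentile 91.3 in WT and 84.5 in cKO. All of these peaks were shared.

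Among the stalk proteins, which recruit the translation factors to the large subunit, Rplp0 stood at percentile 95.9 in WT and 95.2 in cKO, Rplp1 at 96.1 and 87.3, and Rplp2 at 97.4 and 96.5. Rpsa, which doubles as the laminin receptor precursor, stood at 93.5 and 81.5. Rps6, the substrate of S6 kinase below mTOR, had a 1427 bp peak at percentile 94.3 in WT and a 1317 bp peak at 80.3 in cKO. Rps3, which also binds NF-kappaB subunits, stood at 93.3 and 89.7. Rpl22, needed for the development of alpha-beta T cells, stood at 93.6 and 80.1, and its paralog Rpl22l1 had no peak assigned to it under its own symbol. Rpl38, required for patterning of the axial skeleton, stood at 97.5 and 95.3, and Rps14, lost in the 5q- syndrome, at 95.7 and 93.2. Rpl26, a regulator of p53 translation, stood at 89.0 and 61.7. Of the X-linked genes, Rpl10 stood at 93.1 and 89.1 and Rps4x lower, at 75.7 and 47.1. Rps27l, a p53-induced relative of Rps27, stood at 93.0 and 82.3.

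The lowest ranked start peak in WT belonged to Rpl13 (percentile 67.3, chr8:123101768-123103064), and it too was shared. In cKO the lowest was that of Rpl23a, at percentile 31.9, whose WT peak at chr11:78183024-78184296 stood at 77.9. The plot of score percentiles shows start peaks crowded above percentile 67 in WT. Most gene peaks elsewhere and most pseudogene peaks lay lower, with upper quartiles of 46.5 and 59.0, but they reached 77.1 and 99.7.

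**Figure D1:**
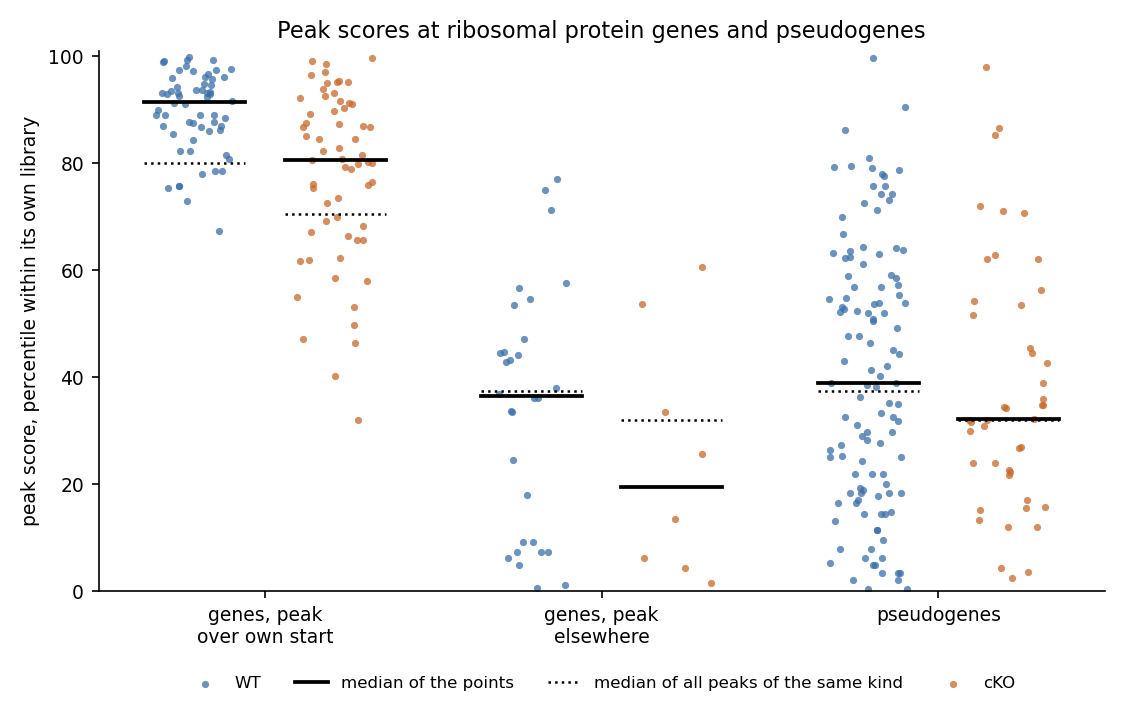
Score percentile of each peak within its own library (vertical axis, 100 is the highest score) for ribosomal protein genes with the peak over their own start, genes with the peak elsewhere, and pseudogenes, in WT (blue) and cKO (orange). Solid bars are medians of the points and dotted bars are medians of all peaks over a start, or of all peaks outside the promoter class; the medians of the start peaks, 91.5 and 80.6, lie above their dotted bars at 80 and 70.4, while the pseudogene medians of 38.8 and 32.2 lie near theirs at 37.3 and 32.0.

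The start peaks were of ordinary size. Those of the genes' own symbols had a median width of 1230 bp in WT, as had all 10995 peaks over a start, and 1040 bp in cKO against 1090 bp. They reached a median of 549 bp upstream and 672 bp downstream of the start in WT, against 538 and 648 bp over all start peaks, and 449 and 618 bp in cKO, against 472 and 588 bp. Rpl41, which encodes the shortest ribosomal protein, had the widest peak, at 2772 bp in WT and 2447 bp in cKO. In both libraries this peak also held the start of Zc3h10, so its width is not that of the Rpl41 start alone. Rps4x and Rpsa were wider in cKO than in WT, at 136.4% and 128.3% of the WT width.

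**Figure D2:**
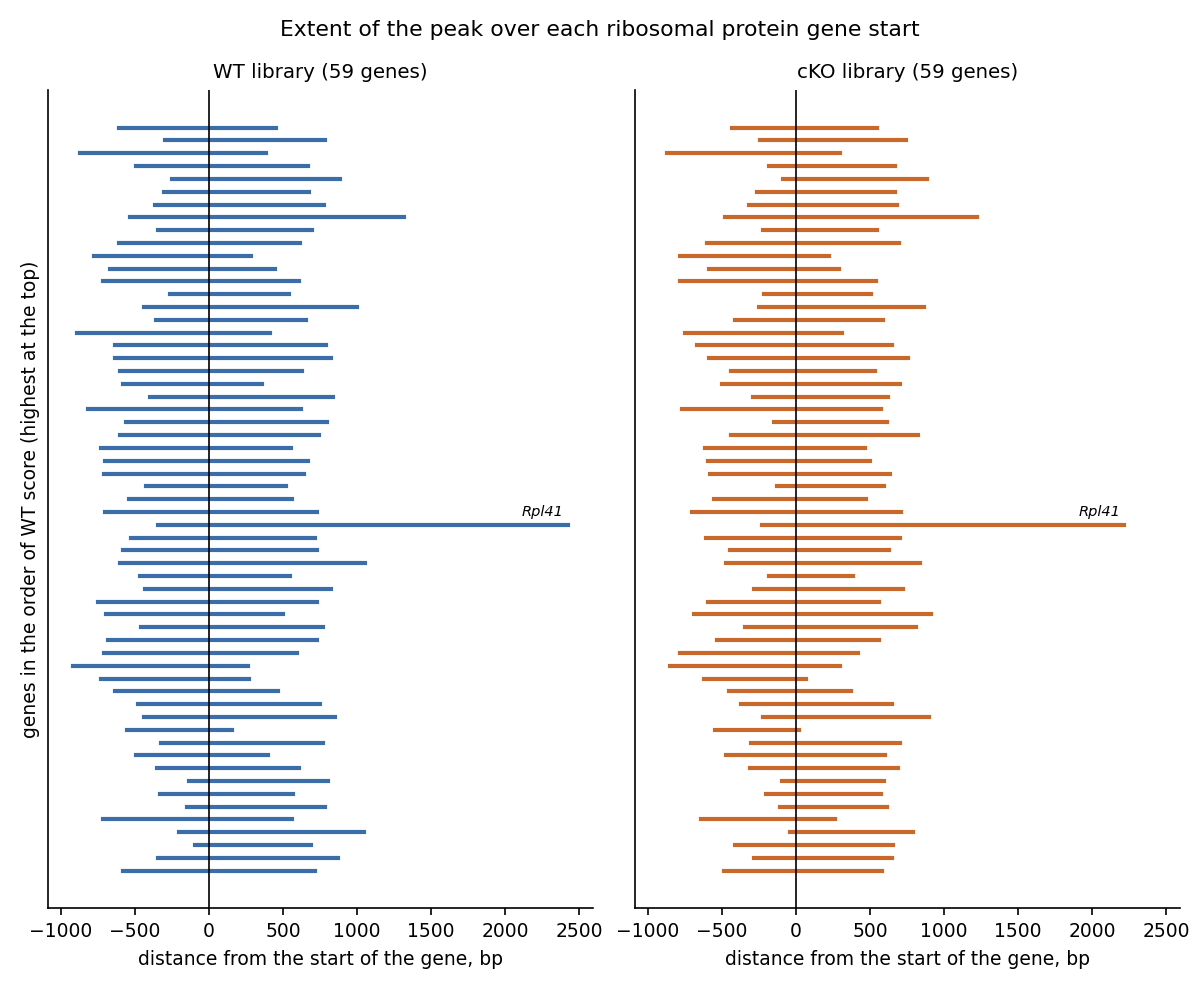
Extent of the highest scoring peak over each of 59 gene starts, in bp from the start (horizontal axis, upstream to the left), in WT (left) and cKO (right), with 1 bar for each gene in the order of WT score from the top and Rpl41 named. The bars span the start in both panels, and Rpl41, whose peak also holds the Zc3h10 start, reaches farthest downstream in both. Of the symbols, 56 are ribosomal proteins proper and Rpl7l1, Rps27l and Rps19bp1 are relatives or partners.

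The symbols given to the peaks hide part of this. Under their own symbols 62 of the 77 genes had any peak in WT and 60 in cKO, and 56 had a peak of the promoter class (within 3 kb of a start) in both. The start peak carried the gene's own symbol for 56 genes in WT and 58 in cKO. For 17 genes in WT and 15 in cKO it carried the symbol of another gene at the same peak, besides the 4 genes without a strand. In WT 7 of these partners were named coding genes: Rdh10 for Rpl7, Lias for Rpl9, Lrsam1 for Rpl12, Nkiras1 for Rpl15, Iqcg for Rpl35a, Rab13 for Rps27 and Ndufa7 for Rps28. The Rps21 start carried Mir3091, and 9 others carried predicted or clone-named models (Rpl6, Rpl7a, Rpl10a, Rpl24, Rpl34, Rps3a1, Rps10, Rps12 and Rps13). Rps27a, which encodes a fusion of ubiquitin and a small subunit protein, had one of the strongest peaks of the family, at percentile 99.5 in WT and 97.3 in cKO, over one end of the gene and under the symbol Clhc1.

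Read by symbol alone, 6 of 67 gene symbols with a WT peak had no cKO peak, where 28.2% of all 19215 symbols of the WT list had none. They were Rpl24, Rpl34, Rpl37rt, Rpl6, Rpl6l and Rps21. For 4 of them the start lay under a peak with another name in both libraries. The Rpl24 start lay under a WT peak at chr16:55965639-55967101 (percentile 75.6) assigned to Gm28037, that of Rpl34 under one at chr3:130729493-130730909 (93.7, Gm42997), that of Rpl6 under one at chr5:121204103-121205137 (83.0, Gm26205) and that of Rps21 under one at chr2:180256403-180257933 (92.5, Mir3091). The peaks that bore the 4 symbols were weaker and apart from the start, at percentiles 33.6, 0.58, 9.17 and 53.5. Rpl37rt and Rpl6l, which are retrocopies of Rpl37 and Rpl6 named without -ps, had no start peak in either library. Rpl7 and Rps12 bore cKO peaks and no WT peak, and in WT their starts lay under peaks named Rdh10 (percentile 88.8) and Gm23130 (94.7).

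Of genes whose only peaks of their own symbol lay outside the promoter class, Rpl34, Rps21 and Rpl6l had 1 distal intergenic peak in WT. Rps10 had an intron peak in both libraries, annotated to intron 5 of 8 of RPS10-NUDT3 at chr17:27629214-27629907 in WT, and Rps28 had a peak in the UTR class at chr17:33817219-33818258 that overlaps Kank3. The Rps10 and Rps28 peaks were shared.

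Apart from the start, the genes had fewer and weaker peaks than over it. In WT 30 of 90 peaks lay elsewhere, with a median percentile of 36.5 and a median width of 788 bp. All WT peaks outside the promoter class were near these values, at 37.3 and 838 bp. All 60 WT peaks over the gene's own start were shared with cKO (100%, 94.0 to 100; 86.0% of all WT peaks over their own start), against 6 of 30 elsewhere (20%, 9.51 to 37.3; 42.1% of all WT peaks not over their own start). The 6 were those of Rpl21 7.8 kb upstream, Rplp1 14.5 kb downstream, Rps10, Rps14 26.4 kb upstream, Rps23 6.4 kb downstream and Rps28. The strongest unshared one lay 6429 bp upstream of Rpl11 at chr4:136059822-136060527, at percentile 71.2. Rps15a had the one cKO peak of a gene without a WT partner, 710 bp at chr7:118119440-118120149 in the 3' UTR class at percentile 1.57, which overlaps Arl6ip1. Rps19 had a cKO peak 5642 bp downstream that overlaps a WT peak named Cd79a, a B cell gene.

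The pseudogenes differed from the genes in where their peaks lay. None of 117 WT peaks named for a pseudogene touched the start or the body of that pseudogene, which allows a share of up to 2.56%, and none of 45 cKO peaks did (up to 6.67%). Of all WT peaks, 52.3% overlapped the body of their assigned gene, and of 81 WT peaks named for other -ps symbols 8 did (9.88%) and 7 touched the start (8.64%). In cKO 62.8% of all peaks did, and 5 of 35 for other -ps symbols (14.3%), with 4 at the start (11.4%). Of gene peaks, 60 of 90 in WT and 62 of 70 in cKO lay over the start of their own gene, with 31.9% and 46.2% over all peaks. The bodies themselves were also searched without regard to names. RefSeq places 316 ribosomal protein pseudogenes with -ps symbols on these chromosomes, with a median length of 531 bp, and 0 of 316 lay under a peak in WT or in cKO, which allows up to 0.949%. Of 10285 RefSeq pseudogenes outside the family, with a median length of 936 bp, 2.68% lay under a WT peak and 1.53% under a cKO peak. The closer comparison was the 1033 other RefSeq genes with -ps symbols, with a median length of 923 bp. Of these, 12 lay under a WT peak (1.16%, 0.666 to 2.02) and 9 under a cKO peak (0.871%). Both shares are within 1.2%, the upper Wilson bound for 0 of 316, and the cKO share is also within 0.949%. By the same search 77 of 77 ribosomal protein genes lay under a peak in both libraries. How reads that match several copies were treated is not given in the sources used here, and its part in these counts was not tested.

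Peaks named for a pseudogene lay a median of 12.4 kb from its start and as far as 125 kb. In WT, 57 of 117 were distal intergenic (48.7%, 39.8 to 57.7; 20.6% of all WT peaks) and 30 lay in introns of other genes. The promoter class held 20 (17.1%, 11.3 to 24.9; 44.5% of all WT peaks), of which 4 were within 1 kb, against 63 of 90 for genes (70.0%, 59.9 to 78.5), a difference of 52.9 points (40.1 to 63.2, Newcombe interval). In cKO the promoter class held 10 of 45 pseudogene peaks (22.2%) and 62 of 70 gene peaks (88.6%), with 57.8% over all cKO peaks, and 23 of 45 pseudogene peaks were distal intergenic (51.1%; 16.3% of all cKO peaks). Intervals cover counting error only, and peaks of 1 locus are not independent.

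**Figure D3:**
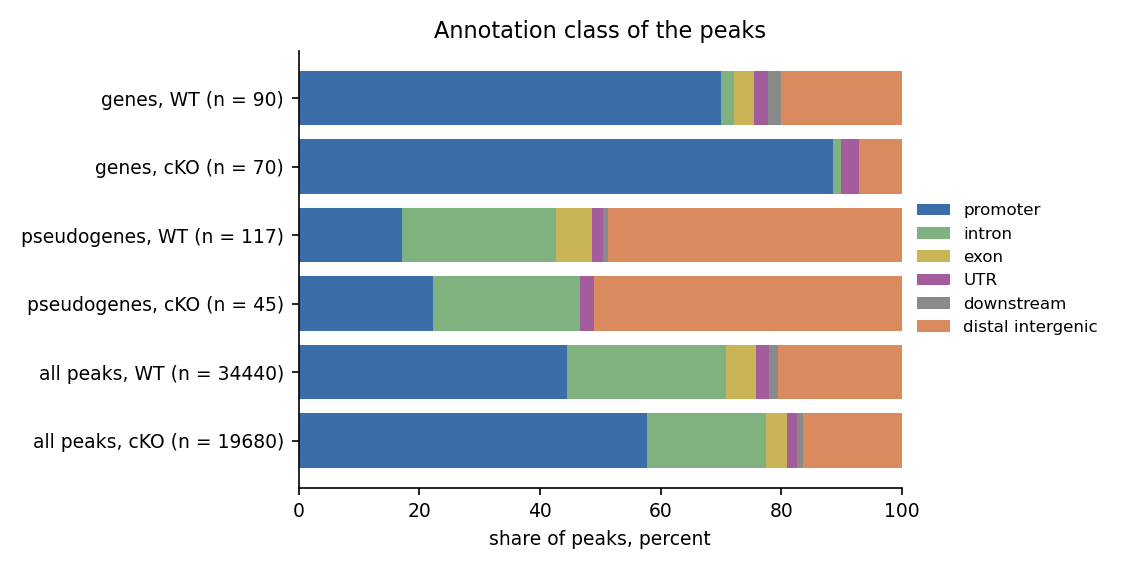
Share of peaks in each annotation class (horizontal axis, percent) for ribosomal protein genes, their pseudogenes and all peaks, in each library. The promoter class takes 70.0% of WT gene peaks and 17.1% of WT pseudogene peaks, with 44.5% over all WT peaks, and the distal intergenic class is the largest for pseudogenes in both libraries.

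The pseudogene peaks were near other peaks outside promoters in score. Their median percentile was 38.8 in WT and 32.2 in cKO, against 37.3 and 32.0 for all peaks outside the promoter class, and their median width was 820 bp against 838 bp in WT and 944 bp against 871 bp in cKO. Only 4 of 117 WT peaks stood above percentile 80, where 52 of 90 gene peaks did. The 4 were those of Rpl30-ps6, Rpl21-ps8, Rps2-ps6 and Rps18-ps2, all shared with cKO.

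Rpl30-ps6 gave its name to the strongest of them, a 1534 bp peak at chr1:86486948-86488481 at percentile 99.7 in WT and 98 in cKO. It is 13.3 kb from the pseudogene, and the nearest RefSeq coding gene, Ptma, is 38076 bp away. Rpl21-ps8 had 5 peaks, all shared, along Mbp, the gene of myelin basic protein. The strongest, at chr18:82525187-82526909 and 1166 bp upstream of the pseudogene, stood at percentile 90.5 in WT and 86.5 in cKO and was the one promoter-class pseudogene peak above percentile 80 in either library. Rps2-ps6 had a peak at chr14:76216459-76217768 at percentile 86.1 in WT and 85.2 in cKO, and a second WT peak at 45.0 without a cKO partner.

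Rps18-ps2, with 6 WT peaks the most of any pseudogene, had them from within Chd7, a chromatin remodeler gene, towards Clvs1. Its strongest peak, at chr4:8926284-8928671, stood at percentile 81.0 in WT and 71.1 in cKO, and 3 of the 6 were shared. The peaks named for 1 pseudogene share a neighbourhood and are not independent of each other.

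Unshared pseudogene peaks in WT reached percentile 74.1 (Rpl31-ps15, chr3:37738064-37738883), and that of Rpl21-ps7 stood at 69.9 (chr17:83312254-83313243). Rpl19-ps1 alone among pseudogenes had a cKO peak without a WT partner, 596 bp at chr1:85011303-85011898 and 216 bp from the start, at percentile 15.2. In all, 38 of 68 pseudogene symbols with a WT peak had no cKO peak of that name, against 28.2% of all symbols and 50.0% of 52 other -ps symbols, 30 had both, and 1 had a cKO peak alone. Of the 38, Rpl19-ps3 had its WT peak overlapped by a cKO peak named Exoc5.

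Several of these names stand for open regions beside genes of T cells, which were picked out after the values were seen. A peak named Rpl18-ps1 at chr1:60898265-60899625 lay 9400 bp from Ctla4, the inhibitory receptor of Treg cells, at percentile 77.6 in WT and 72.0 in cKO. Rpl17-ps1 named 3 WT peaks beyond Icos, a costimulatory receptor, of which the one at percentile 79.3 was shared, at 56.3 in cKO. Rps2-ps4 named 2 WT peaks in intron 21 of 24 of Rad50, at chr11:53656685-53657476 and chr11:53662778-53663545, at percentiles 62.3 and 38.2. The 3' introns of Rad50 are known to hold the control region of the Il4, Il5 and Il13 cytokine genes. Neither peak had a cKO partner. With the WT list cut into 10 equal bins by score, 83.7% of all WT peaks in the bin around percentile 62.3 had one. In the bin around percentile 38.2 it was 32.0%. Whether this region differs between the genotypes was not tested.

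Over all their peaks the genes were shared more often than the pseudogenes in WT. A cKO peak overlapped 66 of 90 WT gene peaks (73.3%, 63.4 to 81.4) and 46 of 117 WT pseudogene peaks (39.3%, 30.9 to 48.4), a difference of 34.0 points (20.6 to 45.6), with 56.1% over all WT peaks and 42.0% over those named for other -ps symbols. In the promoter class 60 of 63 gene peaks and 9 of 20 pseudogene peaks were shared, with 74.3% over all WT peaks of that class. Outside the promoter class the order was the other way round, at 6 of 27 (22.2%) and 37 of 97 (38.1%), but the interval of the difference ran from -31.2 to 4.7 points, with 41.4% over all WT peaks of that kind. In cKO 69 of 70 gene peaks and 44 of 45 pseudogene peaks had a WT partner, with 97.6% over all cKO peaks.

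The sharing followed the score. The whole WT list was cut into 10 bins of equal size by score. Of pseudogene peaks in the lowest bin, 0 of 15 were shared (6.68% of all WT peaks there), and of those in bins 2 to 4 it was 1 of 17 (14.0%), 2 of 15 (21.1%) and 3 of 12 (32.0%). In bins 5 to 8 the shared ones were 5 of 10 (47.0%), 12 of 20 (63.3%), 8 of 11 (83.7%) and 11 of 13 (94.7%). In bins 9 and 10 all 4 were shared (98.8% and 99.5%). Of gene peaks, 52 fell in bins 9 and 10 and all were shared, while 0 of 17 in bins 1 to 4 were. Shared pseudogene peaks were 1170 bp wide at the median and unshared ones 663 bp. Fewer or weaker open regions in cKO cells and a smaller sequencing depth cannot be told apart here, since read totals were not used and the depth is unknown.

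**Figure D4:**
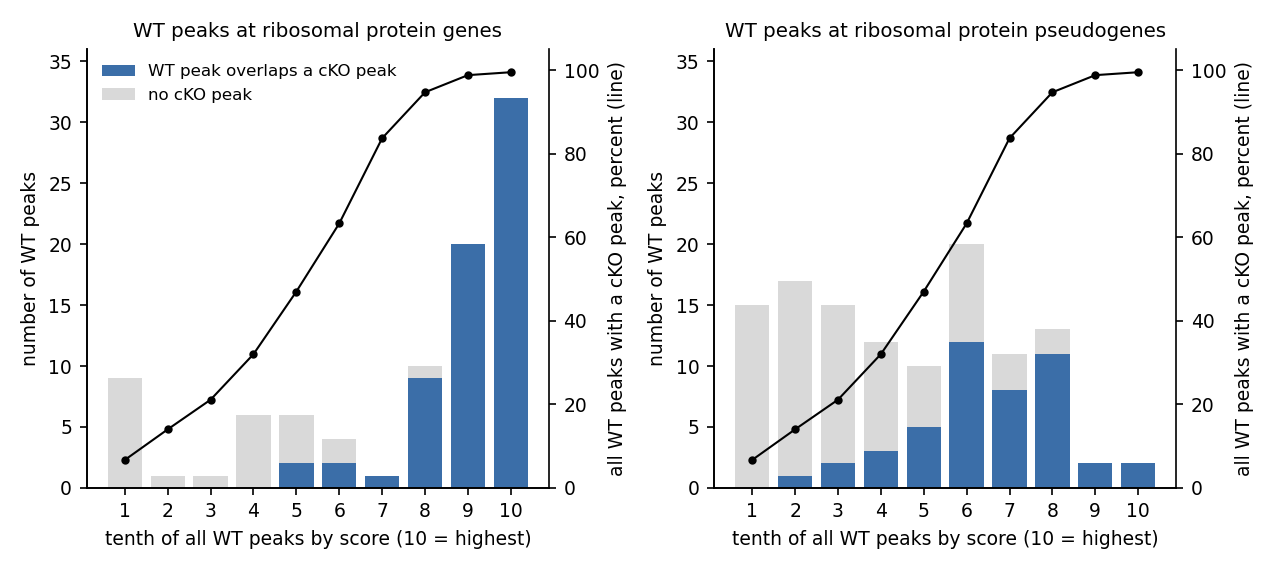
Number of WT peaks of ribosomal protein genes (left) and pseudogenes (right) in each of 10 equal score bins of the whole WT list, with those that overlap a cKO peak in blue and the rest in grey (left axis); the line gives the percent of all WT peaks in the bin that overlap a cKO peak (right axis). Gene peaks pile up in bins 9 and 10, with 52 of 90, whereas pseudogene peaks fill the lower bins, with 4 of 117 in bins 9 and 10.

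To set the libraries side by side on one scale, peaks that overlap one to one were ranked again within these 18926 pairs. The 60 pairs over starts of ribosomal protein genes had median percentiles of 84.6 in WT and 79.8 in cKO, against 70.4 and 68.5 over all 9317 start pairs. The percentile was lower in cKO for 41 of the 60 (68.3%; 58.1% of all start pairs), with a median difference of -1.49 points against -1.53. Of 37 above percentile 80 in WT, 28 were above it in cKO (75.7%; 79.8% of all start pairs). By subunit, it was lower for 21 of 36 large subunit pairs and for 18 of 21 small subunit pairs, with median differences of -0.76 and -6.34 points. This split was noticed in these data and has no replicate check. The largest fall among start pairs was that of Rpl23a (60.7 to 30.2), Rpl26 fell from 80.2 to 60.6, and the largest rises were those of Rpl13a (76.2 to 91.3) and Rpl17 (68.4 to 79.9). In cKO the peak was narrower for 52 of the 60 (86.7%; 87.5% of all start pairs), at a median of 86.7% of the WT width. Mitochondrial ribosomal protein genes showed a median difference of -6.93 points over 55 pairs, with 41 lower. For ribosome biogenesis genes the median difference was -5.16 points over 26 pairs, with 21 lower. For translation factor genes it was -2.62 points over 30 pairs, with 21 lower. A fall like that of the small subunit pairs was thus also seen in other gene sets.

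**Figure D5:**
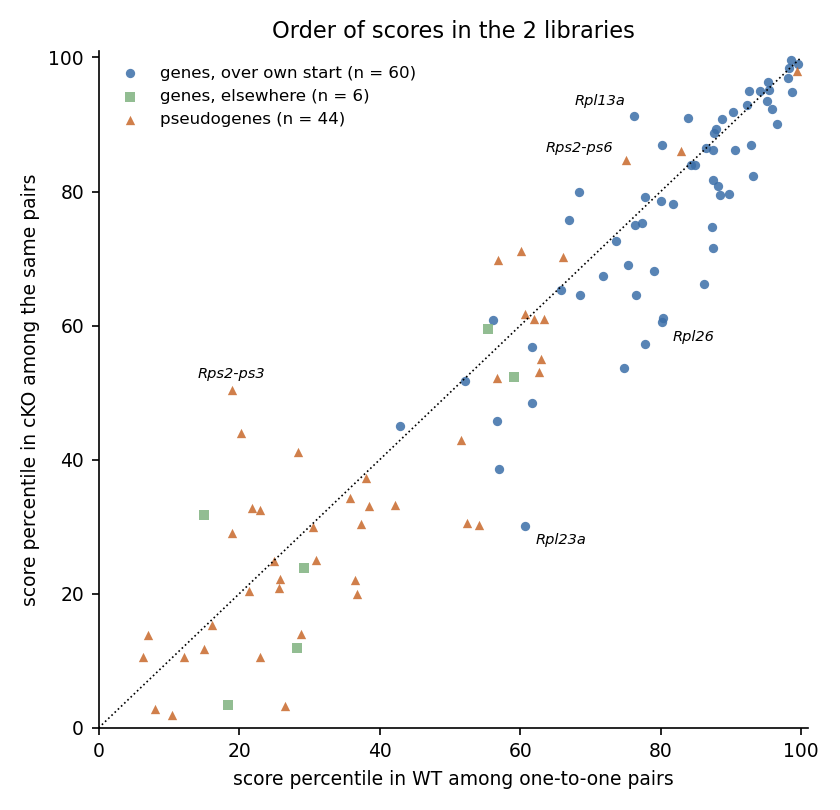
Score percentile of members in WT (horizontal axis) and in cKO (vertical axis) among the 18926 one-to-one peak pairs, for genes over their own start (60 pairs), genes elsewhere (6) and pseudogenes (44); the dotted line marks equal percentiles. Start pairs crowd the upper right corner at medians of 84.6 and 79.8, pseudogene pairs lie lower at 33.4 and 31.5, and Rpl23a lies farthest below the line among the start pairs.

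Most other genes of the ribosome pathway also had a start peak in both libraries. Of 3 ribosome components whose symbols fall outside the family pattern, Rack1 had a shared start peak under the symbol Gm25296 (percentile 97.8 in WT). Fau, which encodes a small subunit protein fused to a ubiquitin-like domain, had a 633 bp start peak in WT at chr19:6057520-6058152 (percentile 77.3) that no cKO peak overlapped. In that score bin 96.1% of WT peaks over their own start were shared. Of 32 ribosome biogenesis genes, all 32 had a start peak in WT and 31 in cKO, led by Polr1d (percentile 99.8, under the symbol Lnx2), a subunit of RNA polymerases I and III, and Ltv1 (99.2), a factor of small subunit assembly. The exception, Nop10, had a cKO peak that overlapped its WT peak and stopped short of the start. Of 34 translation factors, 33 had a start peak in WT and 32 in cKO, led by Eif5a (99.7) and Eif3k (99.5). Eif3l had a WT start peak at percentile 64.6 without a cKO partner, and Larp1 had no peak over its start in either library, with 2 peaks of the promoter class in WT and 1 in cKO.

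Over the whole series, all 6 genes looked up for Treg cells had peaks in both libraries, 24 in WT and 16 in cKO. They were Foxp3, Il2ra, Ctla4 and Ikzf2, with Cd4 and Cd3e, which other T cells also carry. By the narrower measure of a start under a peak, 49.2% of protein-coding genes had one in WT and 42.9% in cKO. Of the markers of other cells, 1 of 2 for CD8 T cells and 1 of 3 for B cells had a peak in each library, and 0 of 3 for myeloid cells in WT and 1 of 3 in cKO. Tkt had 1 peak in each, and the labels do not place the floxed part of the gene, so this checks nothing of the genotype. The lists covered 36 Mb in WT and 20.7 Mb in cKO.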

How the data were processed

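Per the submitters' processing notes, reads were handled with Trimmomatic, FastQC, BWA and MACS2 on build mm10; the sources used here give no versions, settings or annotation tool. The authors called peaks per library and deposited, for each, a position, a score, a class and 1 gene. The file headers do not say what the deposited score is, so it was used only as a percentile within its list. Depth is unknown.

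Members were matched by symbol in Python 3.11.15 with pandas 2.3.3. A peak was shared when it overlapped a peak of the other library by 1 bp; the code was checked against bedtools 2.31.1 on real and simulated intervals. Starts were taken from the deposited lists and RefSeq tables (GRCm38.p6), which are not complete. Shares carry Wilson 95% intervals and their differences Newcombe intervals, for counting error only. Where a share was 0, 3 counts of the total were taken as its limit. No p-value was computed.

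Genes were named by rule, with a few not reported here: the highest ranked peaks, those without a partner or outside promoters, and genes with known roles; Rpl7, Rpl13, Rpl23a, Rpl41, Rps12, Rps27a, Nop10, Larp1, the largest differences in width, the largest differences in order and regions beside T cell genes were added after their values were seen. The members and lists were chosen with earlier results of these data known. Alternatives were a 50% overlap, peaks above the median score, lists of equal length, peaks within 3 kb, proper symbols, a width minimum, promoters within 1 kb and RefSeq starts.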

Additional observations from a re-analysis of the deposited data

How the results depend on the processing

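No paired analysis was possible because each genotype has 1 library, and for the same reason no library could be left out. The WT share of gene peaks with a cKO partner, 73.3%, became 85.1% with only the peaks above each list's median score, 90.4% with lists of equal length and 95.2% within 3 kb of the start. The share for pseudogene peaks, 39.3%, became 25% with peaks above the median scores and 72.7% with lists of equal length, so the difference ranged from 17.7 points (4.3 to 31.5) with equal lists to 60.1 points (42.8 to 72.1) above the median scores. The cKO share of gene peaks with a WT partner, 98.6%, became 100% both above the median scores and within 3 kb, and that of pseudogene peaks, 97.8%, became 86.7% with equal lists. A 50% overlap, proper symbols alone and a WT width of at least 465 bp left each share within the interval of its main value. The number of genes with a promoter peak in both libraries, 56, ranged from 52 above the median scores to 77 by gene start. Depth limits the weakest peaks most, and a peak that is not called is not shown to be closed.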
